A study of Homo sapiens with 6 samples.

Results

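The interferon regulatory factors (IRF) are transcription factors that carry a related DNA-binding domain at the N-terminus and recognize GAAA-type elements in the promoters of interferon (IFN) genes and IFN-stimulated genes (ISG). IRF1 is an activator induced by IFN gamma, and IRF2 binds the same elements and often opposes it. IRF3 is present in most cells and is switched on by phosphorylation downstream of RNA and DNA sensors, IRF7 is itself an ISG that amplifies the type I IFN response, and IRF9 joins STAT2 in the ISGF3 complex. IRF5 acts downstream of Toll-like receptors, and IRF4 and IRF8 are known mainly from lymphoid and myeloid cells. The analysis covers the 8 genes IRF1, IRF2, IRF3, IRF4, IRF5, IRF7, IRF8 and IRF9, taken by symbol from the 37887 rows of the count table. All 8 had a row, 6 passed the filter on low counts, and IRF4 and IRF8 did not.

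RNA-seq was done on BT-549, an established triple-negative breast cancer (TNBC) cell line, in 2 groups of 3 libraries. The control libraries are titled as control shRNA and labelled as treated with DMSO, at 0.1% in the series design. The shPBRM1 libraries are labelled as treated with doxycycline (DOX), at 500 ng/ml, which switches on a tet-regulated shRNA against PBRM1, a subunit of the PBAF chromatin remodeling complex. The series design places the inducible PBRM1 shRNA in both groups, while the titles name a control shRNA, and in either reading an effect of DOX cannot be told apart from an effect of the silencing. The data rest on a single cell line and a single PBRM1 shRNA, and the treatment time of these libraries is not given in the sources used here. The libraries are described as triplicate cultures, so the p-values concern the spread between cultures of one line. The main tests take the 6 libraries as independent, although same-numbered control and shPBRM1 libraries had correlated deviations, as given with the processing.

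The total counts ranged from 36429395 to 65096297 per library, and 3 counts, taken as the floor of detection, corresponded to between 0.0471 and 0.0804 CPM (counts scaled to a common library size, adjusted by TMM). This floor covers counting error only and takes the counts as independent. The silenced gene itself, PBRM1, was measured at 158 ± 2.30 CPM in control libraries, and 26.5% of that level (41.9 ± 1.22 CPM, SD, n = 3 per group) remained after silencing. Of the receptors whose proteins define TNBC by their absence, ESR1 had no more than 2 counts and PGR no more than 12 counts in any library, whereas ERBB2 mRNA was present at 51.26 and 50.02 CPM in control and shPBRM1 cells. The mesenchymal markers moved apart, with a log2 fold change of 0.31 for VIM, 0.54 for CDH2 and -1.33 for FN1, which fell from 554 to 221 CPM. The epithelial marker CDH1 fell from 5.002 to 1.51 CPM (log2 fold change -1.73), and EPCAM had no more than 8 counts. Of 9 B cell, T cell and myeloid markers, 6 never exceeded 10 counts, among them MS4A1 and CD3E with no count in any library. Of the other 3, PTPRC and PAX5 were lower in shPBRM1 cells (log2 fold change -2.55 and -2.97) and CD14 was higher (1.004), all below 1 CPM on average. The sum of the 9 markers was 1.63 to 2.04 CPM in control and 0.926 to 1.11 CPM in shPBRM1 libraries, and the part of such transcripts in the IRF results was not tested. Replicate 1 of the shPBRM1 group stood apart from the other 2, at 21.5 and 24.9 chi-square units per degree of freedom against them, compared with 7.20 between these 2 and 4.92 to 7.35 among control libraries. Without it the log2 fold changes of IRF1, IRF2, IRF7 and IRF9 were -1.61, -0.62, -3.25 and -1.98, with the same calls. In bulk RNA, fewer cells that express a gene cannot be told apart from less RNA per cell.

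Promoter windows from RefSeq (GRCh38.p14, 250 bases before to 50 bases after each annotated start) were matched for IRF1, IRF4, IRF5, IRF8 and IRF9 and not for IRF2, IRF3 and IRF7. They were searched for the gamma-activated sequence (GAS), an element of IFN gamma responses, spelled TTCNNNGAA, which reads alike on both strands, and for the IFN-stimulated response element (ISRE), which is GAAA followed by any 2 bases and a further GAAA, on both strands. The GAS letters were found in the windows of IRF1 and IRF9 and the ISRE letters in none of these members, so that no match of the 2 patterns overlapped. Among all 35116 promoter windows of the same length, 7.66% held the GAS and 3.57% held the ISRE letters, and of all genes with a window 9.38% and 4.38% did. The stretches around these matches are shown, with the GAS letters in capitals, because IRF1 and IRF9 both fell in shPBRM1 cells. The window of STAT2 held neither pattern, although STAT2 fell as well. The other members searched, IRF4, IRF5 and IRF8, were rare or undetected. Whether the matches bear on the fall was not tested. A match is a description and not a bound site. The IRF1 stretch is chr5:132490799-132491023 on the minus strand, upstream of the gene in GENCODE v29, and its match begins 124 bases before the RefSeq start.
IRF1: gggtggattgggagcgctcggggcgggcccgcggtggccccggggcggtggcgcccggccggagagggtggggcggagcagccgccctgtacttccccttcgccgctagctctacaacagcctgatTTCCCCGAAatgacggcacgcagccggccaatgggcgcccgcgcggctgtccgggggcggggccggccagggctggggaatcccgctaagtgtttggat
The IRF9 stretch is chr14:24161192-24161220 on the plus strand, and its match begins 63 bases before the RefSeq start. GENCODE v29 starts the IRF9 gene further upstream, at 24161053.
IRF9: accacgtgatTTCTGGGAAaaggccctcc

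The comparison of shPBRM1 with control cells asks how the IRF genes respond when PBRM1 is silenced. IRF7, IRF9 and IRF1 fell by more than 2-fold, to 11%, 27.1% and 33.0% of their control levels. IRF2 fell by less, to 63.8%. IRF3 was at 105% of its control level and did not pass the test, and IRF5 and IRF4 had no more than 31 counts and IRF8 had no count in any library. Genes were called with edgeR (quasi-likelihood F-test, 15450 genes) when the Benjamini-Hochberg adjusted p was below 0.05 and the change exceeded 2-fold. By this rule 3 of the 6 tested IRF genes were lower, against 9.68% of all tested genes. None of them was higher, against 2.87% of all tested genes, and none was higher with DESeq2 either. Without the fold change minimum 4 were lower, against 33.2% of all tested genes (64.7% in both directions). The same 4 of the 6 IRF genes had an unadjusted p under 0.05, as did 10434 of the 15450 tested genes. In these 4 genes the CPM values of the groups did not overlap, which was the case for 68.3% of all tested genes. Over the 6 tested IRF genes the median log2 fold change was -1.13, and that of all tested genes was -0.0080.

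**Figure D1:**
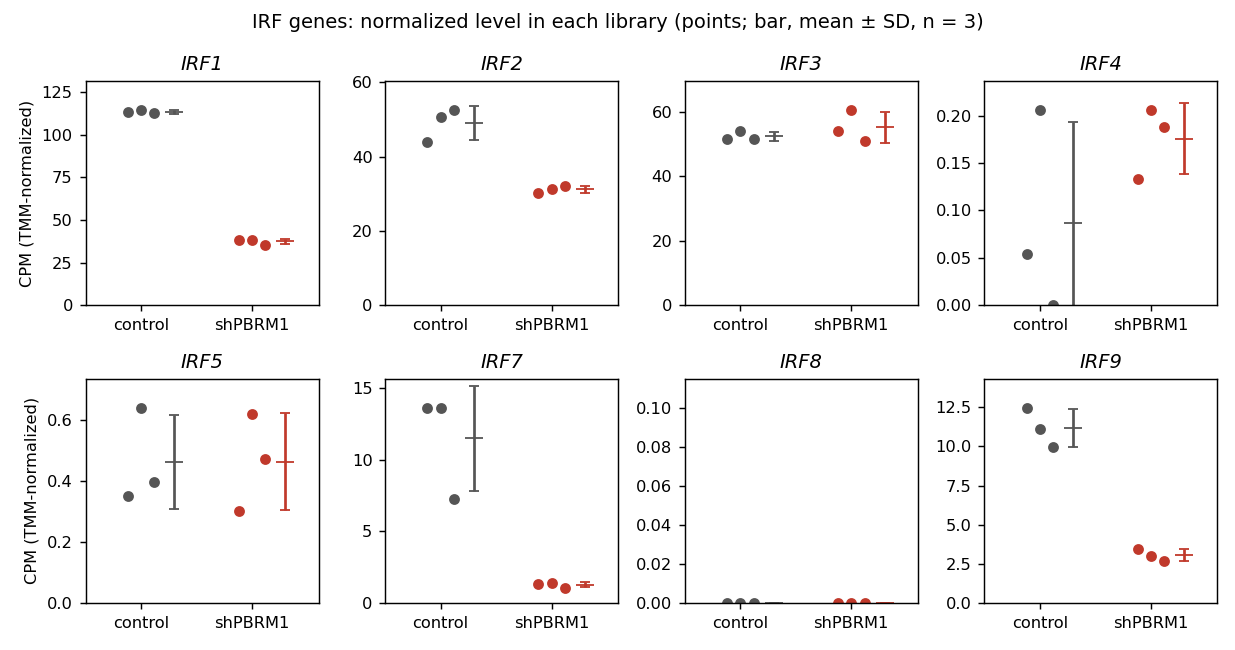
TMM-normalized level (CPM, linear axis from 0, a separate scale in each panel) of the 8 IRF genes in the 3 control (grey) and 3 shPBRM1 (red) libraries, with the mean ± SD beside the points. IRF1, IRF2, IRF7 and IRF9 are lower in every shPBRM1 library than in any control library, IRF3 and IRF5 overlap, and IRF8 is at 0 throughout.

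Among the activators, IRF1 (chromosome 5, 132481609 to 132490798, minus strand, protein-coding, GENCODE v29 on GRCh38) had the most counts in control cells. Its raw counts were 4223, 5562 and 5676 in control replicates 1, 2 and 3 and 2299, 1500 and 2262 in the shPBRM1 replicates, which is 113, 114 and 113 CPM against 38.3, 38.5 and 35.5 CPM. The libraries of each group lie close together, and the lowest control library was well above the highest shPBRM1 library. The fitted log2 change was -1.60 (standard error 0.039, adjusted p = 2.83e-20, edgeR's quasi-likelihood test), with a 95% interval from -1.68 to -1.52. In the annotation IRF1 shares 1716 exon bases with C5orf56, a non-coding gene on the opposite strand, and 469 with AC116366.3, also on the opposite strand and without a row of that symbol in the table. C5orf56 itself fell from 9.18 to 2.12 CPM (log2 fold change -2.12, adjusted p = 1.48e-13). Whether reads were counted by strand is not stated, and the counts of C5orf56 were far below those of IRF1.

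IRF7 (chromosome 11, 612553 to 615999, minus strand), the amplifier of type I IFN production, showed the largest change of the IRF genes. Its raw counts were 508, 660 and 366 in the control replicates and 80, 54 and 68 in the shPBRM1 replicates. These correspond to 13.6, 13.6 and 7.26 CPM in control and 1.33, 1.39 and 1.07 CPM in shPBRM1 cells. Control replicate 3 stood below the other 2 control libraries, but above all shPBRM1 libraries. The fitted log2 change was -3.19 (standard error 0.20, adjusted p = 1.38e-12, edgeR), with a 95% interval from -3.60 to -2.79. Without control replicate 3 it was -3.44. No other gene overlaps IRF7 in the annotation.

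IRF9 (chromosome 14, 24161053 to 24166565, plus strand), the DNA-binding subunit of ISGF3, had 465, 539 and 504 counts in the control and 206, 117 and 170 counts in the shPBRM1 replicates. The levels were 12.5, 11.1 and 9.99 CPM in control and 3.43, 3.01 and 2.67 CPM in shPBRM1 cells, without overlap. The fitted log2 change was -1.88 (standard error 0.11, adjusted p = 9.19e-13, edgeR), with a 95% interval from -2.11 to -1.64. The same difference was seen in each same-numbered pair of libraries, at -1.85, -1.86 and -1.89 for replicate numbers 1, 2 and 3. In GENCODE v29 the gene AL136295.5 on the same strand shares 1838 exon bases with IRF9, or 48.4% of its exons. These are as many bases as the longest IRF9 transcript has. The table has no row of that symbol, and how reads shared by 2 genes were counted is not given in the sources used here, so the level of IRF9 relative to other genes is uncertain.

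IRF2 (chromosome 4, 184387713 to 184474580, minus strand), the antagonist of IRF1, had 1636, 2469 and 2648 counts in the control and 1818, 1219 and 2052 counts in the shPBRM1 replicates. Normalized levels were 43.8, 50.8 and 52.5 CPM in control and 30.3, 31.3 and 32.2 CPM in shPBRM1 cells, so the groups did not overlap. IRF2 fell by 0.65 on the log2 scale (standard error 0.058, adjusted p = 1.01e-09, edgeR), with a 95% interval from -0.77 to -0.53 that lies within a 2-fold change. No exon of another gene overlaps its exons.

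IRF3 (chromosome 19, 49659569 to 49665875, minus strand), the factor switched on by phosphorylation, was at 51.4, 53.8 and 51.5 CPM in the control replicates and at 53.9, 60.4 and 51.0 CPM in the shPBRM1 replicates. The groups overlapped. The fitted log2 change was 0.071 (standard error 0.051, adjusted p = 0.233, edgeR), with a 95% interval from -0.035 to 0.18. IRF3 shares 19.3% of its exon bases with BCL2L12, a divergent gene on the opposite strand that rose from 11.2 to 28.5 CPM (log2 fold change 1.35, adjusted p = 3.17e-14). The part of BCL2L12 reads in the IRF3 counts was not tested.

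**Figure D2:**
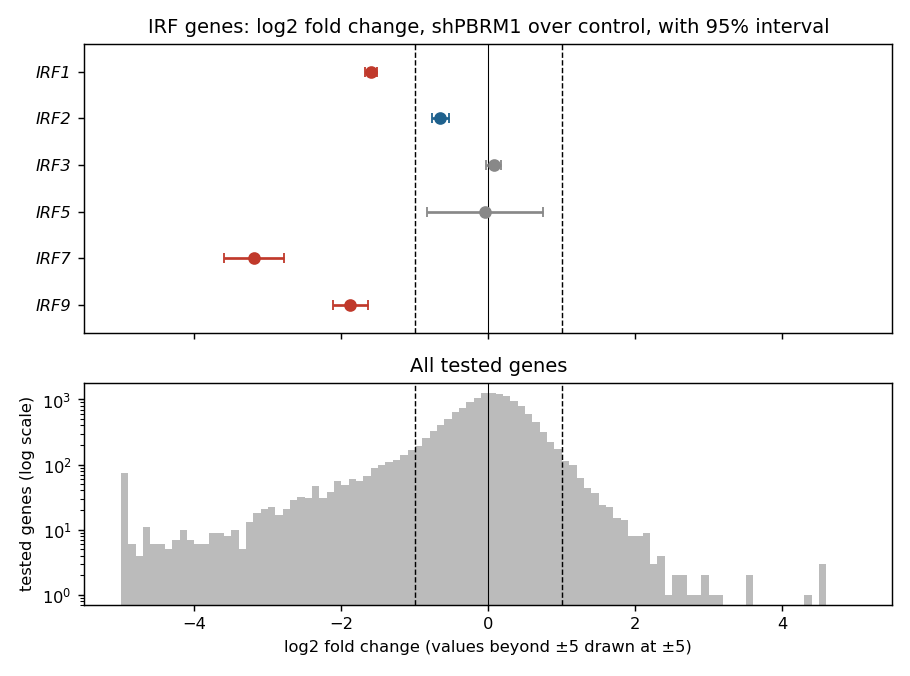
Log2 fold change (shPBRM1 over control) of the 6 tested IRF genes with 95% intervals from the quasi-likelihood fit (upper panel), above the log2 fold changes of all 15450 tested genes (lower panel, gene number on a log axis); dashed lines mark a fold change of 2. IRF1, IRF7 and IRF9 (red) lie beyond the line, IRF2 (blue) passed the test inside it, and IRF3 and IRF5 (grey) lie around 0.

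The remaining members were rare or undetected. IRF5, on chromosome 7 from 128937612 to 128950035, had 13, 31 and 20 counts in the control and 18, 24 and 30 counts in the shPBRM1 replicates, or 0.461 ± 0.155 CPM and 0.462 ± 0.159 CPM (SD, n = 3 each). Its log2 fold change was -0.046 (adjusted p = 0.924, edgeR). The 95% interval from -0.83 to 0.74 leaves changes within that range possible, and it is not a limit of detection. IRF4, on chromosome 6 from 391739 to 411447, had 2, 10 and 0 counts in the control and 8, 8 and 12 counts in the shPBRM1 replicates. It was tested when no filter on low counts was applied, where the log2 fold change was 0.97 (adjusted p = 0.348, edgeR). IRF8, on chromosome 16 from 85898803 to 85922609, had 0 counts in all 6 libraries, which allows up to 3 counts in each if counts are independent. The excess of even values among low counts, described with the processing, was not allowed for.

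Levels of different genes were compared per length, as TPM (counts divided by gene length and scaled to the same total in every library), with the union of annotated exons as length. In control cells IRF2, IRF1 and IRF3 made up 30.6% ± 2.86, 28.2% ± 0.685 and 26.8% ± 0.206 of the summed TPM of the 8 genes (SD, n = 3). IRF7 followed with 8.46% ± 2.59 and IRF9 with 5.73% ± 0.662, while IRF5 and IRF4 together were under 1%. The ranges of IRF1 and IRF2 overlapped between control libraries, and so did those of IRF7 and IRF9. In shPBRM1 cells IRF3 made up 47.1% ± 1.86 and IRF2 32.7% ± 2.04 of the pool. IRF1 was at 15.6% ± 0.507, IRF9 at 2.60% ± 0.331 and IRF7 at 1.56% ± 0.162. The summed level went from 171 ± 1.56 TPM to 96.6 ± 5.69 TPM, or 56.4% of control. The order of IRF1, IRF2 and IRF3 in control cells depended on the length assigned to each gene. With the length of the APPRIS principal transcript, an alternative chosen with the data in view, the shares in control cells were 33.4% for IRF1, 31.6% for IRF3 and 22.5% for IRF2, and in shPBRM1 cells IRF3 had 54.3%.

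**Figure D3:**
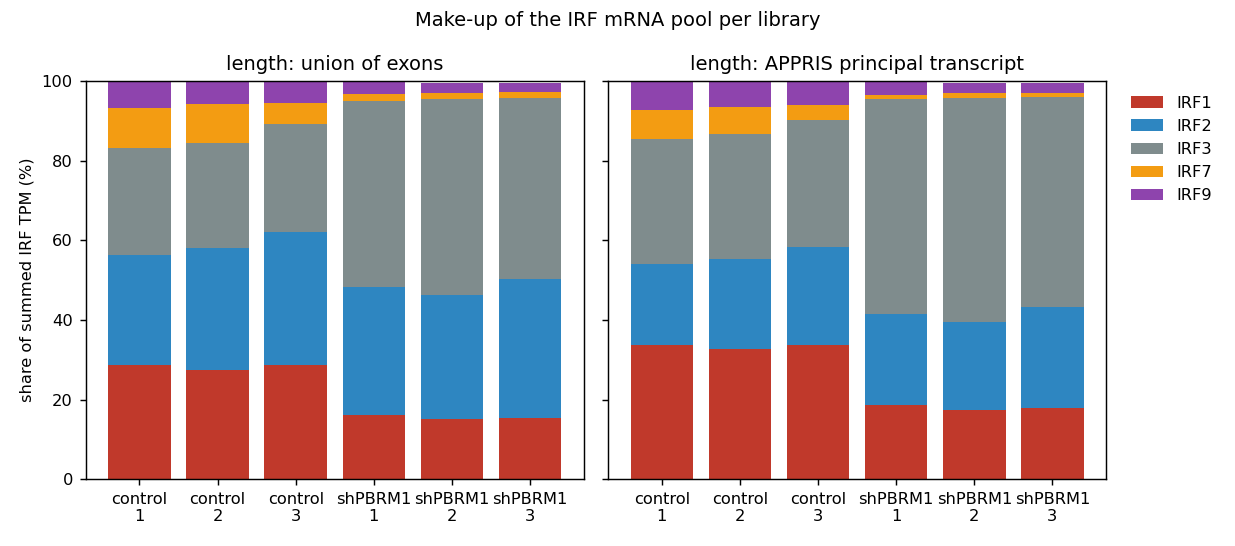
Share of each IRF gene in the summed TPM of the 8 genes (percent, linear axis from 0), per library, with gene length taken as the union of exons (left) or as the APPRIS principal transcript (right); IRF4, IRF5 and IRF8 are too small to draw. IRF3 (grey) takes the widest part of every shPBRM1 bar in both panels, with 47.1% on average in the left and 54.3% in the right panel. IRF1 (red), IRF7 (orange) and IRF9 (purple) are narrower there than in control libraries.

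Ratios of counts within a library do not depend on the scaling between libraries. The log2 ratio of IRF1 to IRF2, activator to antagonist, was 1.37, 1.17 and 1.10 in the control replicates and 0.34, 0.30 and 0.14 in the shPBRM1 replicates. The ratio was lower in 3 of 3 pairs, and the group means differed by -0.95. STAT2, a partner of IRF9 in ISGF3, went from 130.2 ± 4.44 to 25.4 ± 1.11 CPM (SD, n = 3, log2 fold change -2.36). The log2 ratio of IRF9 to STAT2 was -3.39, -3.59 and -3.65 in the control replicates and -2.94, -3.06 and -3.17 in the shPBRM1 replicates. Its group means were -3.54 ± 0.137 and -3.06 ± 0.117 (SD, n = 3), a difference of 0.48. For both ratios the groups did not overlap, and p was 0.1 by a two-sided exact permutation test, which cannot go lower with 3 libraries per group, also after Benjamini-Hochberg adjustment over the 3 ratios computed. Per length, STAT2 exceeded IRF9 by 7.28 ± 0.676 times in control and 5.24 ± 0.430 times in shPBRM1 cells. This excess carries the uncertainty of the IRF9 level given above.

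**Figure D4:**
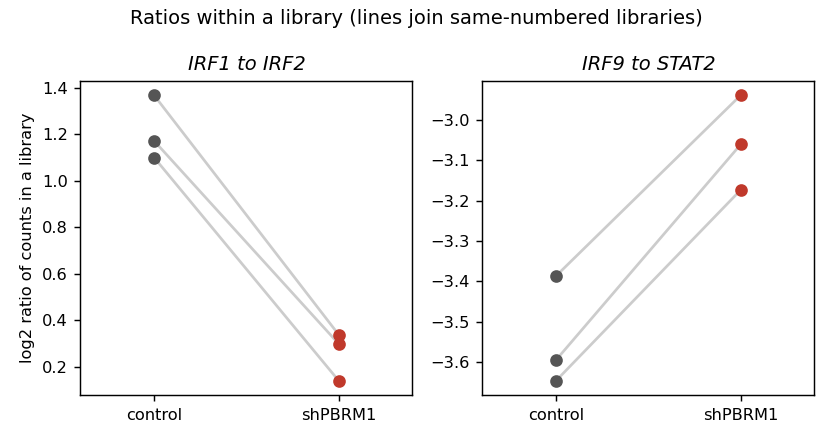
Log2 ratio of the counts of 2 genes within each library, for IRF1 to IRF2 and IRF9 to STAT2 (vertical axes do not start at 0 and differ between panels); grey lines join same-numbered control and shPBRM1 libraries. The first ratio is lower and the second is higher in every shPBRM1 library.

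The genes around the IRF factors were taken as lists and described by their counts under the same rule, beside the 9.68% of all tested genes that were lower and the 2.87% that were higher. Among the DNA-binding partners of the IRF factors, STAT2 was lower, and of the lymphoid and myeloid partners SPI1 had no more than 2 counts and BATF had 0 counts. BATF3 had a log2 fold change of -0.52 (adjusted p = 0.012, edgeR). Of the corepressors and factors that control IRF turnover, TRIM21, a ubiquitin ligase with IRF substrates, was lower with a log2 fold change of -2.51, RBCK1, which promotes IRF3 degradation, with -1.57, and IRF2BP2, an IRF2-binding corepressor, with -1.03.

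Of 19 sensors, adaptors and kinases that activate IRF3, IRF5 and IRF7, 15 were tested and 5 were lower. The largest changes were in IFIH1, which encodes the RNA sensor MDA5 and went from 140.9 to 3.87 CPM (log2 fold change -5.24), in the endosomal RNA sensor TLR3 (-4.04) and in DDX58, which encodes RIG-I (-3.25). The other 2, named after their values were seen, were TMEM173, which encodes STING (log2 fold change -1.89), and the adaptor MYD88 (-1.36). The IRF3 kinase TBK1 was at a log2 fold change of 0.090 (adjusted p = 0.0743, edgeR) and the RIG-I adaptor MAVS at -0.18 (adjusted p = 1.04e-04). IKBKE, a further kinase of the list, was at -0.63 (adjusted p = 0.00185, edgeR). TLR7 and TLR9, the receptors upstream of IRF7 in plasmacytoid dendritic cells, and TLR8 had no more than 2 counts in any library. Over the 15 genes the median was -0.20 on the log2 scale.

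The IFN genes, of which IRF3 and IRF7 induce some, were scarce. Of 10 IFN genes 2 were tested, and IFNB1 had 26, 54 and 54 counts in the control and 2, 4 and 0 counts in the shPBRM1 replicates (log2 fold change -4.60, standard error 0.56, adjusted p = 1.32e-07, edgeR). The epithelial IFNE gene had a log2 fold change of -0.27 (adjusted p = 0.550). IFNL1 did not pass the filter, with 10, 20 and 5 counts in the control and 0 counts in each shPBRM1 library, and it was called lower with DESeq2 (adjusted p = 6.55e-05). IFNA2, IFNG and IFNL3 had 0 counts in all libraries.

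The receptors and kinases that carry IFN signals into the cell moved less. Of 9 such genes 8 were tested, and none was lower or higher by more than 2-fold, with edgeR or with DESeq2, although 7 had an unadjusted p under 0.05, as did 10434 of the 15450 tested genes. Without the fold change minimum 4 were higher and 3 were lower, against 31.5% and 33.2% of all tested genes. IFNAR1, a chain of the type I IFN receptor, was at a log2 fold change of 0.43, and the kinase JAK2, which acts at the IFN gamma receptor, at -0.55, both named after their values were seen. The median of the 8 genes was 0.18.

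Genes known to be targets of the IRF factors were mostly lower. For IRF1, 14 targets were listed, of which 12 were tested and 11 were lower. They included BST2, which encodes the antiviral protein tetherin (log2 fold change -7.99), IDO1, the tryptophan-degrading enzyme (-6.30), the inflammatory protease CASP1 (-5.53) and WARS, the tryptophanyl-tRNA synthetase (-1.38). IL15, a cytokine with an IRF1 element, was named after its value was seen and fell short of the 2-fold limit at -0.998. The number of IRF1 targets called lower ranged from 10 to 12 with each library left out. All 13 listed ISGF3 targets were lower, from OAS1 (-10.94), OAS2 (-10.78) and MX1 (-9.35) to ADAR (-1.29). All 6 listed targets of IRF3 and IRF7 were lower too, 3 of which are on other lists as well (ISG15, IFIT1 and IFNB1). CXCL10, a chemokine that attracts T cells, had a log2 fold change of -6.88 and IFIT2 of -5.64. Of 4 targets of IRF5, TNF had no more than 12 counts and IL12B no more than 1 count in any library, IL6 had a log2 fold change of -3.97 and IL12A of -0.58. The medians of the IRF1, ISGF3 and IRF3 and IRF7 lists were -2.58, -6.66 and -5.12.

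**Figure D5:**
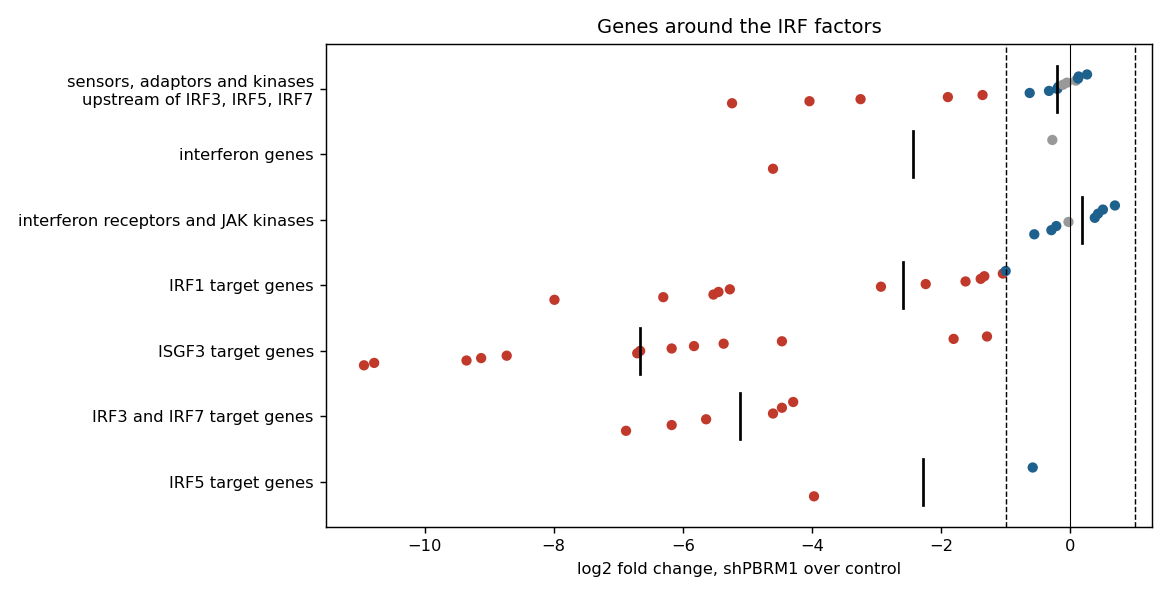
Log2 fold change (shPBRM1 over control) of the tested genes of 7 lists around the IRF factors; each point is a gene, red if called, blue if past the adjusted p limit alone and grey otherwise, and black bars are list medians. Receptors and JAK kinases stay between the dashed 2-fold lines, and ISGF3 targets lie beyond the line on the left.

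For the IRF genes called at a fold change over 2, the tested genes with the most similar pattern over the 6 libraries were found by the root mean square (RMS) difference of log2 CPM, each gene centred on its own mean. The points share libraries and depth, and the ranking is a description. For IRF1 these were MAFF, NR1D1 and KLF4, with RMS differences of 0.034, 0.039 and 0.043 on the log2 scale, and 56 genes lay within 0.1. Their log2 fold changes were -1.58, -1.61 and -1.55, against -1.60 for IRF1. With 2 groups this distance mostly picks genes with a like change between the groups, and shared regulation was not tested. KLF4, for example, went from 102.2 to 34.8 CPM. For IRF9 the nearest were EDNRB (0.070), SPRY3 (0.086) and MEF2C (0.086), and 6 genes lay within 0.1. For IRF7, with its uneven control libraries, no gene lay within 0.1, and the nearest, ERICH2, was at 0.24. ERICH2 was scarce, at 0.518 CPM in control and 0.016 CPM in shPBRM1 cells, the latter below the floor of detection. Its log2 fold change was -4.62, against -3.19 for IRF7, and the 2 counts added before taking logs narrow the distance of such scarce genes.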

How the data were processed

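The 6 RNA-seq libraries were prepared with the TruSeq Stranded mRNA kit. The values deposited by the authors are raw counts for each gene symbol and were not normalized. The submitters' processing notes name CASAVA 1.8.2, STAR 2.7.9a, featureCounts, DESeq2 1.24.0 and GRCh38.p7. The annotation and the strand setting are not given in the sources used here. The control columns carry the line's name and a replicate number and were matched to the control titles. Of the rows, 14 carry dates in place of symbols and were kept. Among counts of 1 to 20, 60.9% to 61.8% were even, against 49.1% to 50.8% above 1000, and the cause was not tested.

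Counts were normalized by TMM and tested in edgeR 4.0.16 (R 4.3.3) by the quasi-likelihood F-test on the 15450 genes that passed filterByExpr, adjusted by Benjamini-Hochberg. Standard errors and 95% intervals come from that fit. Ratios had 2 counts added and were compared by exact permutation tests. TPM used GENCODE v29, in which 98.1% of rows matched a single gene.

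Alternatives were DESeq2 1.42.0, RLE factors, library size only, other filters, glmTreat, the replicate block, each library left out, a prior count of 0.5 and other gene lengths. Deviations from the group means were correlated between same-numbered control and shPBRM1 libraries, at 0.733, 0.593 and 0.418 across 5622 genes for the numbers in the titles, and ranged from -0.67 to 0.464 between differently numbered ones, the highest being control 2 with shPBRM1 3. The tests were checked on simulated counts. These were drawn independently for each library, with the same dispersion for every gene, and so lack the correlation between same-numbered libraries. All 8 IRF genes are described. From each list, the text names the highest-expressed called gene and up to 3 of the largest called changes with a mean of at least 100 counts. Further list genes in the text were picked with their values in view. Certain list genes and 1 ratio are not reported here. The members and lists were chosen with earlier results of these data known.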

Additional observations from a re-analysis of the deposited data

How the results depend on the processing

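The calls of IRF1, IRF7 and IRF9 as lower, and of IRF2 as lower by less than 2-fold, held under every normalization, filter, tool and left-out library tried, and with the replicate block, which left the number of calls in each list as it was. Over all genes the block gave 1498 lower and 457 higher calls, of which 1477 and 438 were shared with the fit without it. IRF5, which was not called, changed sign to 0.010 with the replicate block and lay between -0.26 and 0.27 with each library left out. The log2 fold change of IRF3 lay between 0.0092 and 0.13 with each library left out. IRF3 passed the adjusted p limit only without shPBRM1 replicate 3 (0.13, adjusted p = 0.0448, edgeR), far short of a 2-fold change. With a mean of at least 50 counts, where fewer genes are tested, 941 genes were lower, 270 were higher 0 IFN genes were called and IRF5 was not kept. The IFN genes called lower were 2 with DESeq2 and with no filter on low counts, and 1 to 2 with each library left out (2 without control replicate 3 or any shPBRM1 library), the second being IFNL1. The differences of the ratios kept their direction, also within same-numbered pairs (replicate block, -0.95 for IRF1 to IRF2, exact sign-flip test, p = 0.25, the smallest that 3 pairs allow). Gene length moved the shares. With the longest transcript, IRF1 had 30.0% in control and 17.1% in shPBRM1 cells, IRF3 24.8% and 45.1%, IRF9 8.30% and 3.89%, and the summed level was 194 and 105 TPM. With the principal transcript, IRF1 had 33.4% and 18.0%, IRF2 22.5% and 23.4%, IRF3 31.6% and 54.3%, IRF9 6.41% in control and IRF7 1.06% in shPBRM1 cells, and the summed level was 224 and 127 TPM. Depth limits IRF4, IRF5 and IRF8, for which only large changes could have been detected. The IRF1 targets called lower were 12 with library size only and with the minimum mean of 50 counts, and the IRF3 and IRF7 targets were 5 with the latter. Groups of 3 are too small for a test of outlying libraries.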
